A study of Mus musculus with 6 samples.

Results

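The Hippo pathway genes were examined in RNA-seq data of adult cardiomyocytes (CMs) from 3 CtrlCre and 3 Cpt1bcKO mice. These 10 genes (Yap1, Wwtr1, Tead1, Tead4, Lats1, Lats2, Stk3, Stk4, Sav1 and Vgll4) were chosen as core kinases, adaptors, coactivators and transcription factors of the pathway, and were found by their symbols among the 16448 genes of the deposited table. The rule uses no measured value. Cpt1bcKO mice carried αMHC-Cre and floxed alleles of Cpt1b (αMHC-Cre pos/+;Cpt1b fl/fl), and CtrlCre mice carried αMHC-Cre with intact Cpt1b (αMHC-Cre pos/+;Cpt1b+/+), so that the Cre driver was common to both groups. The αMHC (Myh6) promoter directs Cre to CMs, where inactivation begins in the embryo. All mice were C57BL/6, 8 to 12 weeks of age and without treatment or injury. CMs were obtained from ventricles after removal of the atria, by enzymatic perfusion and low-speed centrifugation, with no sorting step. Cpt1b encodes the muscle isoform of the carnitine palmitoyltransferase that lets long-chain fatty acids enter mitochondria, and the comparison of the genotypes asks how gene expression differs when CMs cannot use this route.

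In the Hippo pathway, the kinases MST2 and MST1 (encoded by Stk3 and Stk4) act with the scaffold SAV1 and phosphorylate the kinases LATS1 and LATS2, which in turn phosphorylate the coactivators YAP (Yap1) and TAZ (Wwtr1). Phosphorylated YAP and TAZ are held in the cytoplasm or degraded, whereas the unphosphorylated proteins enter the nucleus and drive transcription with TEAD factors. VGLL4 competes with YAP for TEAD binding. In the heart the pathway is known as a brake on CM proliferation, and most of its regulation takes place at the protein level, which RNA-seq does not measure.

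Values are normalized read counts, that is, reads per gene that the authors scaled by 1 size factor per sample and then rounded. Differences are log2 fold changes of Cpt1bcKO against CtrlCre on the log2(value + 1) scale, which understates the change of genes with low values, with the standard error (SE) and the p-value of limma's moderated test, adjusted after Benjamini and Hochberg over the 11364 genes that reached 10 in 3 or more samples. The p-values measure the spread between these 3 and 3 mice.

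The targeted gene was checked first. Cpt1b had 1861, 893 and 1443 normalized counts in CtrlCre samples 1, 2 and 3 and 211, 353 and 285 in Cpt1bcKO samples 1, 2 and 3. All Cpt1bcKO samples were below all CtrlCre samples, at 0.207 times the control level (adjusted p = 0.00338, limma). When limma was fitted without a trend, the log2 fold change was the same (-2.27) and the adjusted p was 0.0563. In GENCODE vM21, 81.4% of the exonic bases of Cpt1b are shared with Gm44502 on the same strand, where reads were not counted if the authors' annotation held both. The summed normalized counts ranged from 13393411 to 31722217 per sample, of which the mitochondrial rRNA gene mt-Rnr2 took 61.8% to 80.8%, the highest share in Cpt1bcKO sample 3. When mitochondrial-encoded and rRNA genes were left out, 3146414 to 3551692 remained. Of 10 CM markers all were in the table, and their summed level was 562610 to 681560 in CtrlCre and 361112 to 609231 in Cpt1bcKO samples. The 8 fibroblast markers were also present, at a sum of 498 to 785 in CtrlCre and 1108 to 1338 in Cpt1bcKO samples, without overlap. Endothelial markers summed to 1241 in CtrlCre sample 1 and to 2308 to 2639 in the other 5 samples, while mural, immune and atrial markers overlapped between the groups. No marker of these lists was at 0 in all samples, although the atrial gene Sln was not found in the table. Sample 1 of each group had Xist at 957 and 1080 and the 4 Y-linked genes examined at a sum of 1 and 0, whereas the other samples had Xist at 23 to 78 and Y-linked RNA at 1378 to 1688, so each group held 1 female and 2 male mice. In bulk RNA, fewer cells of a type and less RNA per cell cannot be told apart.

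TEAD factors recognize the short sequence CATTCC, and its presence before the start of the genes was taken from RefSeq promoters (GRCm38.p6, 250 bases upstream of the start, both strands searched, so that GGAATG is the same motif on the other strand). Promoters of 7 of the 10 Hippo pathway genes were matched. The motif was in 4 of these 7 (Yap1, Wwtr1, Sav1 and Vgll4). Of the lists described further on, it was in 6 of the 15 matched YAP target genes and in 11 of the 37 matched other pathway genes. Among 27025 genes with a promoter of this length, 14.4% held it. Among the targets without it was Myof. It was also absent from the matched windows of Stk4, Lats1 and Lats2. The Vgll4 window (chr6:114969204-114969453, minus strand) belongs to a start further upstream and does not adjoin the gene by its deposited coordinates (chr6:114861424-114921821). Promoters of Yap1 (chr9:8004597-8004846, minus strand), Wwtr1 (chr3:57575877-57576126, minus strand), the YAP target Ankrd1 (chr19:36119845-36120094, minus strand) and the YAP target Ccn1 (chr3:145649986-145650235, minus strand) are shown, the first pair as the coactivator genes that hold the motif and the others as classical targets chosen among those that hold it. Capitals mark the motif.
Yap1: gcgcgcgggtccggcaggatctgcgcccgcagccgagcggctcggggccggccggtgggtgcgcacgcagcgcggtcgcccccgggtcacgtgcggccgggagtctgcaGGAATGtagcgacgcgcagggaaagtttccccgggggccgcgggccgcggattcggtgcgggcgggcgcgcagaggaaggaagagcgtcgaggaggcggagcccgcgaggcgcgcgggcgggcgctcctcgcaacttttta
Wwtr1: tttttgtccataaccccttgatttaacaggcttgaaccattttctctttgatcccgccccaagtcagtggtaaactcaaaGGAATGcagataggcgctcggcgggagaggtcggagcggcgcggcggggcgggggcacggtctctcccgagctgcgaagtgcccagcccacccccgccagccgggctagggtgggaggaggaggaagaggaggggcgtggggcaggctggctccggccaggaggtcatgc
Ankrd1: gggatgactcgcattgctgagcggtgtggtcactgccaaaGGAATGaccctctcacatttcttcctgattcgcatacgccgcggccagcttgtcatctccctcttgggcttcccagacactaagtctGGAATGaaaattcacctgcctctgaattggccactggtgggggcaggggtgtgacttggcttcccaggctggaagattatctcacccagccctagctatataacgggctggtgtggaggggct
Ccn1: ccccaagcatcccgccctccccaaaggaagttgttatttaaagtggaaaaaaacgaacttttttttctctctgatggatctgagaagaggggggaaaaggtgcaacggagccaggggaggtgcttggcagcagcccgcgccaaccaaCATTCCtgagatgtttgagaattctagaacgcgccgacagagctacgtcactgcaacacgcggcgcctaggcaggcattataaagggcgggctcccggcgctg
The motif lay 141 bases before the start in Yap1, 170 in Wwtr1 and 103 in Ccn1, and 210 and 123 bases before it in Ankrd1. RefSeq gives Wwtr1 a further start, with the window chr3:57575911-57576160 that adjoins the gene as the deposited table places it, and the same motif lies 136 bases before that start. A match of 6 letters is a description of the sequence and not a binding site.

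Across the pathway, the levels of the core genes differed little between the genotypes. Of the 10 genes, 9 passed the filter on low values and were tested, and Tead4 was not. No gene of the 9 reached an unadjusted p below 0.05, compared with 13.9% of all genes tested, and none reached an adjusted p below 0.05, compared with 1.57% of all genes. The groups overlapped in all 10 genes, whereas they did not overlap in 18.7% of all genes tested. Log2 fold changes ranged from -0.47 for Stk3 to 0.077 for Lats1, with a median of -0.11 against -0.0013 over all genes. The median size of the difference, regardless of sign, was 0.11 for the 9 genes and 0.25 over all genes, while the median SE was 0.229 and 0.256. The whole 95% interval lay within a 2-fold change for 8 of the 9 genes, with Stk3 as the exception, and for 6934 of all 11364 genes. The interval lay within a 1.5-fold change for 5 of the 9 (Stk4, Lats2, Yap1, Wwtr1 and Tead1). Fitted values were lower in Cpt1bcKO for 8 of the 9 genes, but for 4 of the 9 when samples were scaled to their sum after leaving out mitochondrial-encoded and rRNA genes, which moved the median of all genes to 0.11. Relative to that median, 8 of the 9 were again on the lower side. The fibroblast markers, which differed between the groups, were a different case, since all 7 that were tested were higher in Cpt1bcKO at an unadjusted p below 0.05 (2 of them after adjustment), with a median log2 fold change of 1.12. Of the CM markers, 9 of 10 had lower fitted values in Cpt1bcKO, as most Hippo pathway genes did, with a median log2 fold change of -0.44. Of these markers, 3 were lower at an unadjusted p below 0.05 and none passed after adjustment, and 4 were lower without overlap and 1 higher. The part of either marker list in the values of the Hippo pathway genes was not tested.

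**Figure D1:**
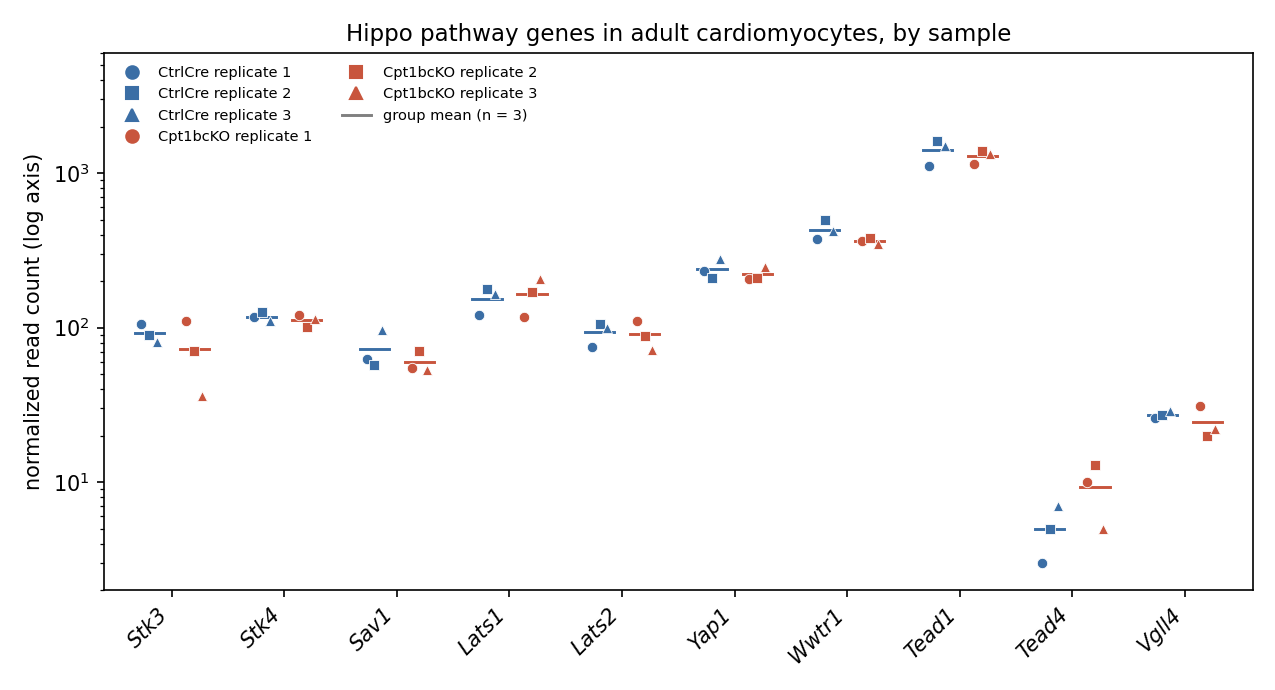
Normalized read counts (log axis) of the 10 Hippo pathway genes in each of the 3 CtrlCre (blue) and 3 Cpt1bcKO (red) samples, with a line at each group mean and the replicate number as symbol. The groups overlap in every gene, with values of 1121 to 1610 for Tead1 and 3 to 13 for Tead4, which are not corrected for gene length.

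The upstream kinases and their scaffold were considered first. Stk3 (ENSMUSG00000022329, chr15:34875496-35155806), which encodes MST2, had 106, 89 and 81 normalized counts in CtrlCre and 111, 71 and 36 in Cpt1bcKO samples. Cpt1bcKO sample 1 was the highest and Cpt1bcKO sample 3 the lowest of all 6, so that the Cpt1bcKO group spanned the controls. The log2 fold change was -0.47 (SE 0.350, adjusted p = 0.595, limma), with a 95% interval of -1.24 to 0.31. Among the male mice alone, 89 and 81 stood against 71 and 36, with a log2 fold change of -0.74 that passed the unadjusted threshold of 0.05 (adjusted p = 0.278, limma). Without Cpt1bcKO sample 1 it was -0.84 and passed it as well (adjusted p = 0.153, against 0.153 to 0.968 over all alternatives), so this sample decided whether Stk3 passed the unadjusted threshold. Without Cpt1bcKO sample 3, the lowest, the log2 fold change of Stk3 was -0.042 (adjusted p = 0.968), so that the lower mean rested on that sample.

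Stk4 (ENSMUSG00000018209, chr2:164074138-164155524), which encodes MST1, varied least among the kinases. Its normalized counts were 117, 126 and 110 in CtrlCre and 120, 101 and 113 in Cpt1bcKO samples. The groups were mixed, and the log2 fold change was -0.081 (SE 0.176, adjusted p = 0.878), with a 95% interval of 0.721 to 1.24 times the control level. Sav1 (ENSMUSG00000021067, chr12:69965012-69987002), the scaffold that brings MST and LATS kinases together, had 63, 57 and 97 normalized counts in CtrlCre and 55, 71 and 53 in Cpt1bcKO samples. CtrlCre sample 3 stood above the other 5, which were mixed. The log2 fold change of Sav1 was -0.25 (SE 0.255, adjusted p = 0.718), but -0.018 without CtrlCre sample 3 and -0.40 without CtrlCre sample 2. In the GENCODE vM21 annotation, 25.4% of the exonic bases of Sav1 are shared with Atl1 on the opposite strand. Without strand in counting, reads there cannot be told apart, and Atl1 itself had 15 to 35 normalized counts.

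The LATS kinases, which phosphorylate YAP and TAZ directly, were ranked in opposite order by the Cpt1bcKO samples. Lats1 (ENSMUSG00000040021, chr10:7681214-7716460) had 120, 177 and 165 normalized counts in CtrlCre and 117, 170 and 207 in Cpt1bcKO samples. Sample 1 was the lowest of each group, and the groups overlapped. Cpt1bcKO was higher by 0.077 on the log2 scale (SE 0.240, adjusted p = 0.921), the only positive value among the 9, and it was -0.11 without Cpt1bcKO sample 3 and -0.092 without CtrlCre sample 1. Lats2 (ENSMUSG00000021959, chr14:57689662-57746123), which is also known as a target of YAP, had 75, 106 and 100 normalized counts in CtrlCre and 111, 88 and 72 in Cpt1bcKO samples. The highest and the lowest sample both belonged to the Cpt1bcKO group. Lats2 had a log2 fold change of -0.058 (SE 0.229, adjusted p = 0.940). A further row of the table also carries the symbol Lats2 (ENSMUSG00000114942, named Gm49361 in GENCODE vM21), a read-through transcript that shares 42.4% of the exonic bases of Lats2 on the same strand. That row had 3, 5 and 4 normalized counts in CtrlCre and 3, 3 and 1 in Cpt1bcKO samples and did not pass the filter on low values. The table holds both genes and the authors excluded reads lying on several genes, so reads on bases that both genes share should not be counted for Lats2. However, in GENCODE vM21 all exonic bases of the further row are shared with Lats2 or Xpo4, and it still had counts. This overlap therefore does not fully describe the authors' counting.

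YAP and TAZ, the coactivators on which the cascade acts, were both well detected. Yap1 (ENSMUSG00000053110, chr9:7931999-8004596) had 231, 210 and 280 normalized counts in CtrlCre and 207, 211 and 247 in Cpt1bcKO samples. CtrlCre sample 3 was the highest and Cpt1bcKO sample 1 the lowest, with the other samples in between and mixed. Yap1 had a log2 fold change of -0.11 (SE 0.17, adjusted p = 0.821), and the interval ran from 0.713 to 1.20 times the control level. Wwtr1 (ENSMUSG00000027803, chr3:57455649-57575910), which encodes TAZ, had 377, 494 and 423 normalized counts in CtrlCre and 366, 378 and 346 in Cpt1bcKO samples. The groups almost separated, with 1 Cpt1bcKO value (378) just above the lowest CtrlCre value (377). The mean was 431 ± 58.9 in CtrlCre and 363 ± 16.2 in Cpt1bcKO (SD, n = 3). Its log2 fold change of -0.24 (SE 0.152, adjusted p = 0.532, limma) was the one with the smallest p of the 9 genes. Wwtr1 stayed lower in Cpt1bcKO in all 16 alternative fits, at -0.34 to -0.13.

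TEAD factors bind DNA and activate transcription together with coactivators such as YAP and TAZ. Tead1 (ENSMUSG00000055320, chr7:112679318-112906807), which encodes a TEAD factor of the heart, had 1121, 1610 and 1490 normalized counts in CtrlCre and 1153, 1386 and 1339 in Cpt1bcKO samples. Sample 1 was again the lowest of each group, and the Cpt1bcKO values lay inside the CtrlCre range. Tead1 had a log2 fold change of -0.11 (SE 0.165, adjusted p = 0.815). Tead4 (ENSMUSG00000030353, chr6:128224288-128300813) was close to the detection limit, with 3, 5 and 7 normalized counts in CtrlCre and 10, 13 and 5 in Cpt1bcKO samples. Cpt1bcKO samples 1 and 2 were above all controls, and Cpt1bcKO sample 3 was within them. With so few reads Tead4 did not pass the filter and was not tested in the reported fit. The fit without a filter held all 10 genes, 2 with higher values (Lats1 and Tead4) and 8 with lower values. None of them passed an unadjusted p below 0.05 there (limma). Vgll4 (ENSMUSG00000030315, chr6:114861424-114921821), the TEAD-binding competitor of YAP, had 26, 27 and 29 normalized counts in CtrlCre and 31, 20 and 22 in Cpt1bcKO samples. The CtrlCre samples lay close together and the Cpt1bcKO samples on both sides of them. Its log2 fold change was -0.18 (SE 0.297, adjusted p = 0.830), with an interval of 0.558 to 1.39 times the control level.

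Levels of different genes were compared only per kilobase of exonic sequence (GENCODE vM21, all exonic bases of a gene). Tead1 was highest at 104 ± 18.8 normalized counts per kb in CtrlCre (SD, n = 3), above 89.9% of all tested genes. Wwtr1 followed at 90.3 ± 12.3, below Tead1 in each of the 6 samples although the ranges of the genes overlapped. Yap1 stood far lower at 26.0 ± 3.88 per kb. The Wwtr1 level per kb was above that of Yap1 in all 6 samples, at 72.4 to 103 against 22.4 to 30.2. Below Yap1 came Lats1 at 21.1 ± 4.12 and Stk4 at 20.1 ± 1.37, then Stk3 at 15.05 ± 2.09 and Sav1 at 13.7 ± 4.10, and the ranges of neighbours overlapped from Yap1 to Stk4 and again between Stk3 and Sav1. The place of Lats2 depended on the bases by which its count was divided. Its whole count gave 13.4 ± 2.36 over all exonic bases and 23.3 ± 4.09 when divided by the 4016 bases that no other gene shares. The latter value holds only if no read on shared bases was counted, which is not known. With that divisor its range of 18.7 to 26.4 overlapped those of Yap1, Lats1 and Stk4. It lay above those of Stk3 and Sav1 over all their exonic bases. The whole count of Sav1, divided by the bases shared on neither strand, gave 18.4 ± 5.49 under the same condition, with a range that overlapped that of Lats2. Vgll4 was at 5.07 ± 0.283 and Tead4 at 1.39 ± 0.556 per kb. Over all exonic bases the order in Cpt1bcKO was the same for the first 5 genes, with Tead1 at 95.3 ± 9.08, Wwtr1 at 76.0 ± 3.38, Yap1 at 23.9 ± 2.38, Lats1 at 22.6 ± 6.20 and Stk4 at 19.0 ± 1.64 per kb.

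**Figure D2:**
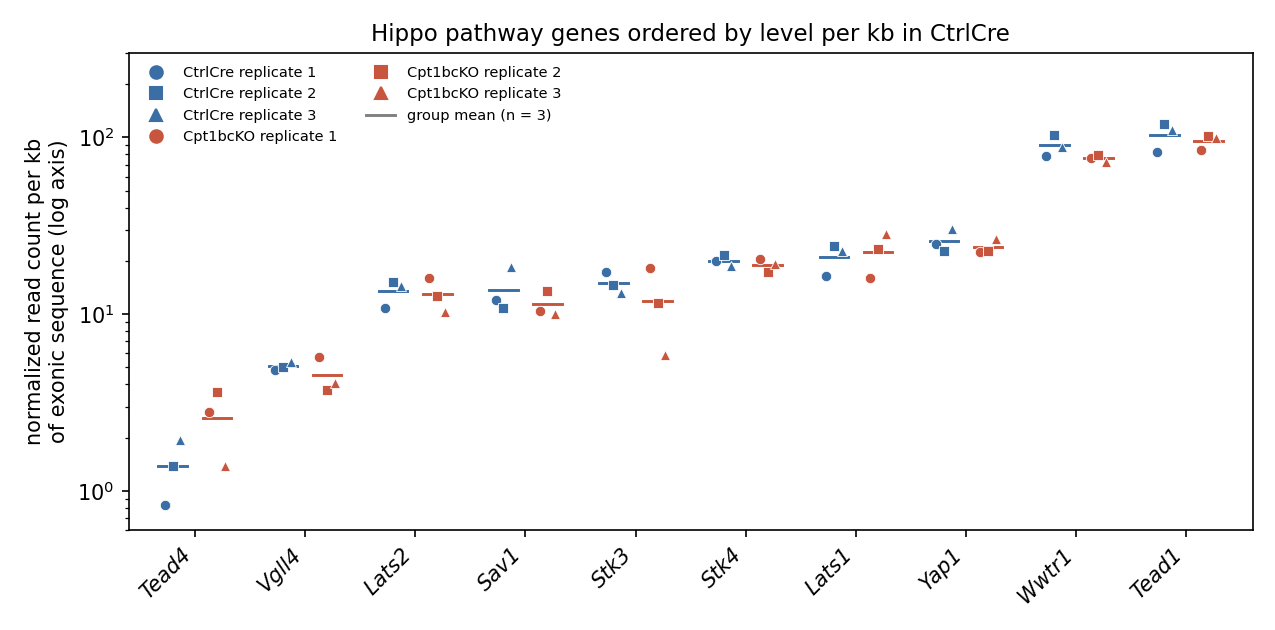
Normalized read counts per kilobase of exonic sequence (all exonic bases, log axis) for the 10 genes, ordered by their mean in CtrlCre, with each sample as a symbol and each group mean (n = 3) as a line. Tead1 and Wwtr1 stand together at the upper end, above Yap1 in every sample, and Tead4 stands at the lower end.

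Genes of closely related function were then set against each other within each sample, as log2 ratios of normalized counts (each + 1), in which the scaling of a sample nearly cancels unless counts are low. Yap1 over Wwtr1 was -0.70, -1.23 and -0.59 in CtrlCre and -0.82, -0.84 and -0.48 in Cpt1bcKO samples, so the difference of the means was 0.13 (exact permutation test, 2-sided, p = 0.8). Lats1 over Lats2 was 0.67, 0.73 and 0.72 in CtrlCre, a narrow range, and 0.075, 0.94 and 1.51 in Cpt1bcKO samples (difference 0.14, exact permutation p = 0.7). The spread of this ratio was 0.033 in CtrlCre and 0.72 in Cpt1bcKO (SD, n = 3). Stk3 over Stk4 was -0.14, -0.50 and -0.44 in CtrlCre and -0.11, -0.50 and -1.62 in Cpt1bcKO samples (difference -0.39, exact permutation p = 0.6). Both ratios were thus more variable among Cpt1bcKO than among CtrlCre samples, with Cpt1bcKO sample 3 at the extreme. Tead1 over Tead4 was 8.13, 8.07 and 7.54 in CtrlCre and 6.71, 6.63 and 7.80 in Cpt1bcKO samples (difference -0.87, exact permutation p = 0.2), and it rests on the few reads of Tead4, with a difference of -0.92 when 0.5 was added to each count and -0.61 when 5 was added. The groups overlapped in all 4 ratios, every adjusted p over the 4 was 0.8, and 3 against 3 samples cannot give an exact p below 0.1.

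**Figure D3:**
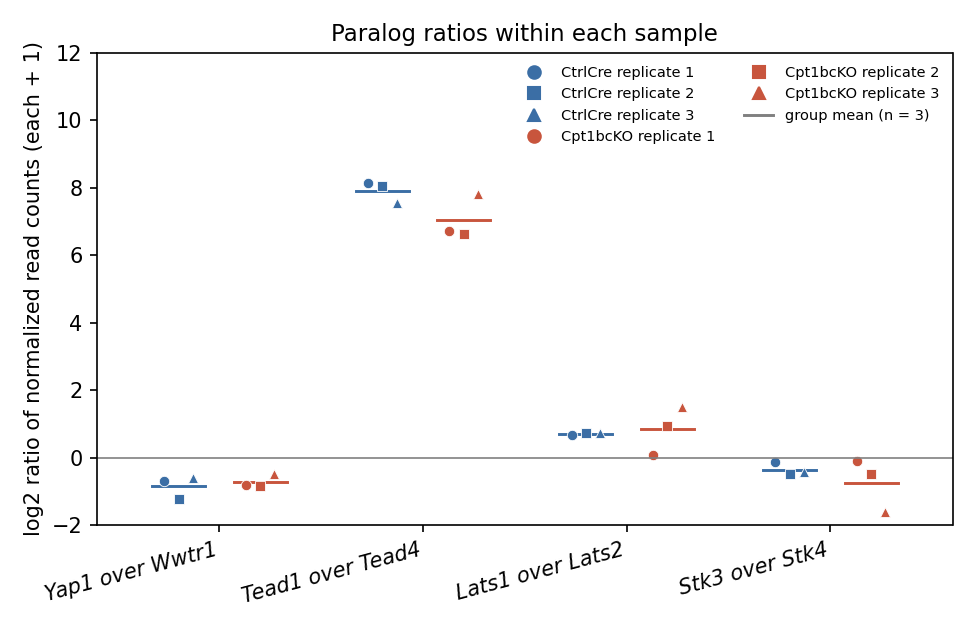
Log2 ratios of normalized counts within each sample for 4 pairs of related genes, with each sample as a symbol and each group mean (n = 3) as a line. CtrlCre samples lie close together for Lats1 over Lats2 (0.67 to 0.73), whereas Cpt1bcKO samples range from 0.075 to 1.51.

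The genes whose pattern over the 6 samples was most like that of Yap1 were Homer2, Pip4k2b and Polr3gl, with Pearson's r of 0.984, 0.973 and 0.962 on the log2 scale among the 6796 genes whose mean reached 50. With 6 samples and so many genes, 21 genes exceeded 0.9, and r is given as a description only. Among the Hippo pathway genes the r with Yap1 was highest for Sav1 at 0.640 and lowest for Stk3 at -0.359, and for Wwtr1 it was -0.062.

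Other genes of the pathway were described with a list of 43 genes, of which 41 were in the table and 34 were tested. Fitted values were higher for 12 and lower for 22, with a median log2 fold change of -0.14. Without adjustment, 4 passed p below 0.05 and all were lower, which is 11.8% of the 34 against 13.9% of all genes in either direction and 7.22% of all genes in the lower direction. None passed after adjustment, compared with 1.57% of all genes. The groups did not overlap in 5 of the tested genes, all lower in Cpt1bcKO, against 18.7% of all genes. Of these, Taok2, an upstream kinase, was outside the naming rule and is named after its values were seen. Among the genes with an unadjusted p below 0.05, Strn3, Strip2 and Slmap encode subunits of STRIPAK, the phosphatase complex that removes activating phosphates from MST kinases. The list held 8 STRIPAK genes, of which 6 had lower and 2 had higher fitted values in Cpt1bcKO. The higher 2, Strn and Ppp2r1a, had log2 fold changes of 0.052 and 0.085 and are named after their values were seen.

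Strn3, a striatin scaffold of STRIPAK, showed the tightest separation. It had 858, 851 and 874 normalized counts in CtrlCre and 652, 609 and 634 in Cpt1bcKO samples. Cpt1bcKO was at 0.734 times the control level (log2 fold change -0.45, SE 0.127, adjusted p = 0.141, limma), and the adjusted p was 0.0339 with sex as a covariate and 0.0339 to 0.462 over all alternatives. Strip2, a further subunit, had 950, 831 and 946 normalized counts in CtrlCre and 616, 763 and 776 in Cpt1bcKO samples, again without overlap, with a log2 fold change of -0.34 (SE 0.147, adjusted p = 0.331). Slmap, which links STRIPAK to MST kinases and is also a membrane protein of muscle, had 2800, 2358 and 2255 normalized counts in CtrlCre and 2277, 1817 and 1715 in Cpt1bcKO samples. Its groups overlapped in the value of Cpt1bcKO sample 1, and the log2 fold change was -0.36 (SE 0.157, adjusted p = 0.348). The unadjusted call was retained by Strn3 in all 16 alternative fits and by Strip2 and Slmap in 8 each.

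Nf2, which encodes the upstream activator merlin, had 492, 357 and 333 normalized counts in CtrlCre and 468, 245 and 272 in Cpt1bcKO samples (log2 fold change -0.30, SE 0.249, adjusted p = 0.642). Sample 1 was the highest of each group, and among the male mice alone the values of 357 and 333 stood above 245 and 272 and the unadjusted threshold was passed (log2 fold change -0.42, adjusted p = 0.213). That threshold was passed in 4 of the 16 alternative fits, and the log2 fold change was -0.59 without Cpt1bcKO sample 1 and -0.12 without Cpt1bcKO sample 2. Mob1a, the adaptor that activates LATS kinases, had 122, 122 and 163 normalized counts in CtrlCre and 168, 170 and 104 in Cpt1bcKO samples, with no separation (log2 fold change 0.097, SE 0.231, adjusted p = 0.890). The other TEAD genes were low. Tead3 had 21, 24 and 23 normalized counts in CtrlCre and 23, 27 and 14 in Cpt1bcKO samples (log2 fold change -0.13, SE 0.339, adjusted p = 0.902). Tead2 had 4, 4 and 6 in CtrlCre and 5, 7 and 3 in Cpt1bcKO samples and did not pass the filter on low values.

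Genes activated by YAP and TEAD were described with a list of 22 genes widely used for this purpose, of which 20 were in the table and 19 were tested, Lats2 among them. Fitted values were higher for 14 and lower for 5, with a median of 0.13, and for 16 and 3 when mitochondrial-encoded and rRNA genes were left out of the scaling. Without adjustment, 6 of the 19 (31.6%) passed p below 0.05, against 13.9% of all genes. Of these, 4 were higher, against 6.66% of all genes, and 2 were lower, against 7.22%. Of all genes that passed the unadjusted threshold, 757 were higher and 821 lower, and these counts became 1221 and 505 under that scaling. Relative to the median of all genes, the fitted values of 14 targets were above and 5 below under that scaling, as in the reported fit. After adjustment 1 was left, Arhgef17, against 1.57% of all genes. The groups did not overlap in 6 genes, 5 of them higher in Cpt1bcKO, against 18.7% of all genes. The targets thus did not move in a single direction.

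Arhgef17, a guanine nucleotide exchange factor, fell most clearly. It had 303, 282 and 301 normalized counts in CtrlCre and 98, 104 and 131 in Cpt1bcKO samples. The ranges were far apart, at 0.375 times the control level (log2 fold change -1.41, SE 0.171, adjusted p = 0.00382, limma), and the adjusted p stayed below 0.05 in all 16 alternative fits, at most 0.0406. Ccn2 (listed under its older symbol Ctgf), the connective tissue growth factor, had 577, 427 and 379 normalized counts in CtrlCre and 202, 441 and 133 in Cpt1bcKO samples. Cpt1bcKO sample 2 was within the controls and the other Cpt1bcKO samples were below them, with a log2 fold change of -0.99 (SE 0.36, adjusted p = 0.248). It was -1.46 without Cpt1bcKO sample 2 and -0.60 without Cpt1bcKO sample 3, where the unadjusted threshold was no longer passed, nor was it without CtrlCre sample 1 (-0.82). On the opposite strand Gm15270 shares 23.2% of the exonic bases of Ccn2. Ccn1 (listed as Cyr61), a matricellular protein and the paralog of Ccn2, had 1113, 782 and 531 normalized counts in CtrlCre and 814, 856 and 644 in Cpt1bcKO samples. The control samples alone differed by more than the groups did, and the log2 fold change was -0.014 (SE 0.242, adjusted p = 0.985).

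Ankrd1, a stress-responsive cofactor of the sarcomere and nucleus, had 7386, 5526 and 4250 normalized counts in CtrlCre and 10634, 9437 and 7654 in Cpt1bcKO samples. All Cpt1bcKO samples were above all CtrlCre samples, at 1.64 times the control level (log2 fold change 0.72, SE 0.213, adjusted p = 0.159, limma). Within each group sample 1 was the highest and sample 3 the lowest. With sex as a covariate the adjusted p was 0.0139, and among the male mice alone the log2 fold change was 0.81 (adjusted p = 0.0388), while the adjusted p ranged from 0.00545 to 0.476 over all alternatives. Myof, a membrane-repair protein, had 4, 13 and 12 normalized counts in CtrlCre and 26, 29 and 19 in Cpt1bcKO samples, without overlap (log2 fold change 1.38, SE 0.471, adjusted p = 0.212). Axl, a receptor tyrosine kinase, had 54, 60 and 67 normalized counts in CtrlCre and 81, 73 and 105 in Cpt1bcKO samples, also without overlap (log2 fold change 0.50, SE 0.219, adjusted p = 0.348). Ccdc80, an extracellular matrix protein, had 81, 104 and 172 normalized counts in CtrlCre and 175, 172 and 180 in Cpt1bcKO samples, with CtrlCre sample 3 at the level of the Cpt1bcKO group (log2 fold change 0.63, SE 0.253, adjusted p = 0.294). Igfbp3 and Dock5, named after their values were seen, were the other genes higher in Cpt1bcKO without overlap. Beside these higher genes, the summed fibroblast markers were 498 to 785 in CtrlCre and 1108 to 1338 in Cpt1bcKO samples, and their part in the target genes was not tested.

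**Figure D4:**
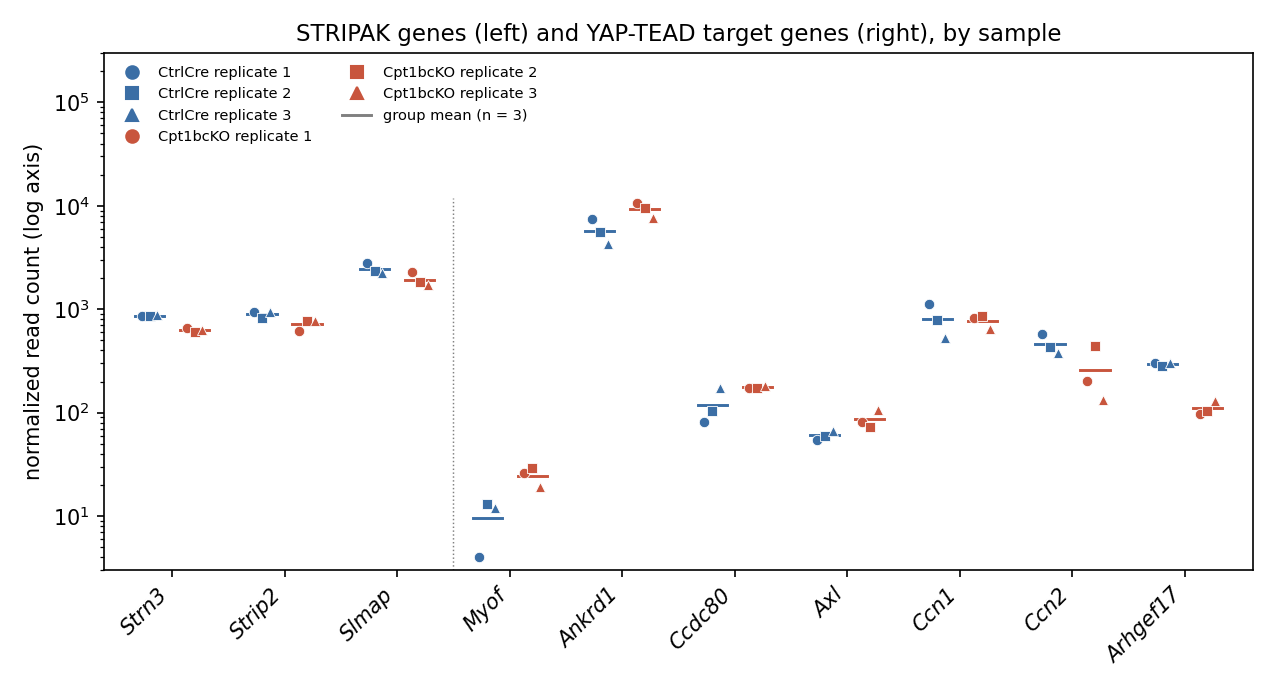
Normalized read counts (log axis) of 3 STRIPAK genes and 7 YAP-TEAD target genes in each CtrlCre (blue) and Cpt1bcKO (red) sample, with a line at each group mean (n = 3). The groups are apart for Strn3, Strip2, Myof, Ankrd1, Axl and Arhgef17 and overlap for Slmap, Ccdc80, Ccn1 and Ccn2.

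**Figure D5:**
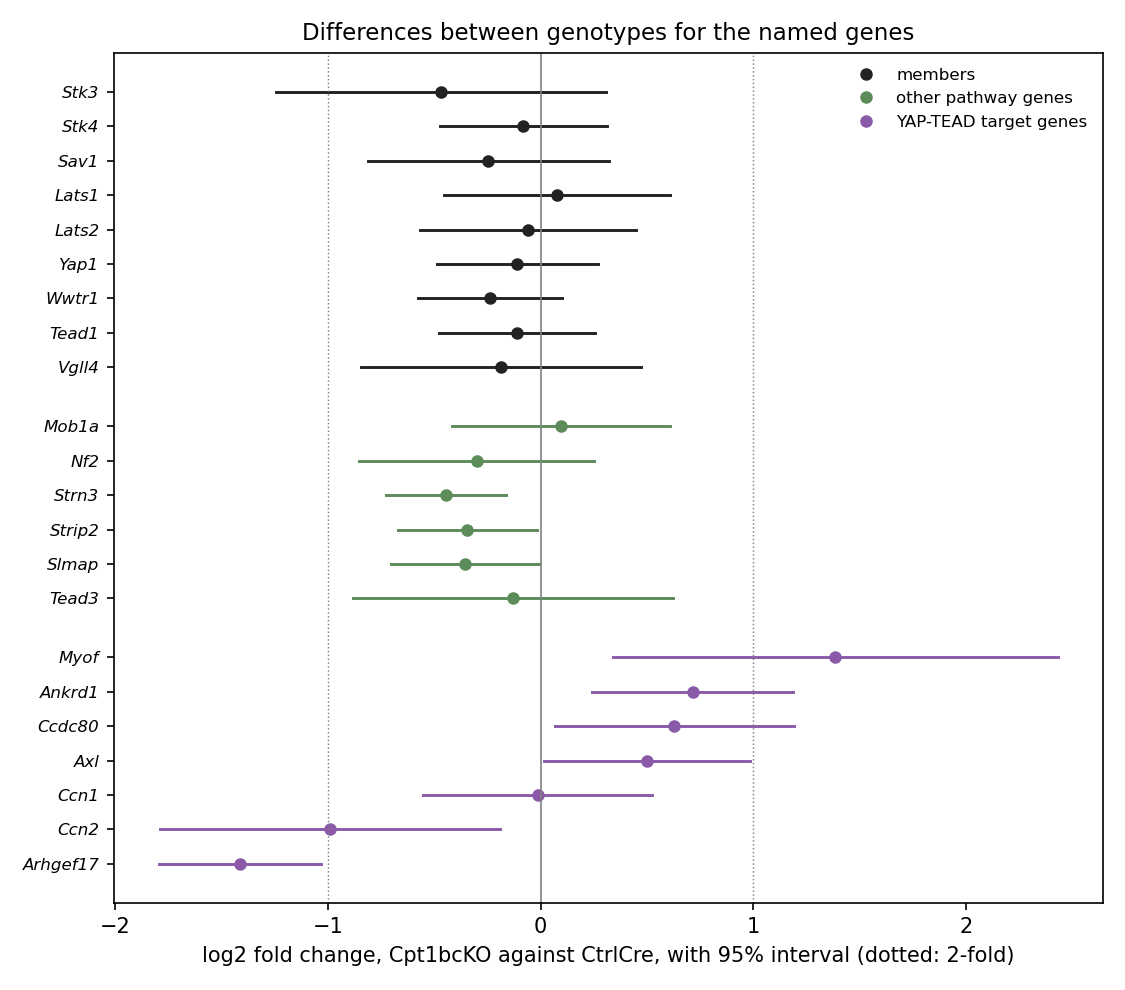
Log2 fold change of Cpt1bcKO against CtrlCre with its 95% interval from limma for the 9 tested Hippo pathway genes (black), 6 other pathway genes (green) and 7 YAP-TEAD target genes (purple), with dotted lines at a 2-fold change. The intervals of all 9 Hippo pathway genes include 0, and that of Arhgef17 lies wholly beyond a 2-fold decrease.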

How the data were processed

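RNA was extracted from isolated adult CMs and sequenced from total RNA. Per the submitters' processing notes and the methods, the authors trimmed reads with Trimmomatic 0.36, aligned them to mm10 (GRCm38.p5) with STAR 2.5.4b and counted them per gene with featureCounts 1.6.0, leaving out reads on several genes. The deposited value is treated as a score, since the authors divided counts by a DESeq2 size factor per sample and rounded them to whole numbers, so raw counts and depth are unknown. Low values are therefore imprecise. The annotation release and strand setting are not given in the sources used here. The authors' group means, log2 fold changes and p-values in the same table were not used. Columns of samples outside the series numbered 0.

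Samples were grouped by their titles. limma 3.58.1 (R 4.3.3, lmFit and eBayes with a trend) was fitted to log2(value + 1) over all genes that reached 10 in 3 or more samples, and the script was tested on simulated data. The design allowed for a count test, which these values do not permit. Paralog ratios were compared by exact permutation over samples. Lists were described by counts and medians, without a set test. The alternatives were 2 other scalings, 2 filters, pseudocounts of 0.5 and 5, no trend, a replicate block and leaving out each sample; a sex covariate and a comparison of male mice were added after seeing the data. The Hippo pathway genes and the other lists were chosen with earlier results of these data known. All 10 were named, as was every listed pathway or target gene with an unadjusted p below 0.05, plus Tead2, Tead3, Nf2, Mob1a, Ccn1, Ccn2 and Ankrd1. A gene that this rule names is not reported here, although the counts include it. Gene coordinates are those of the deposited table, and exonic lengths come from GENCODE vM21. Further steps used Python 3.11.15, pandas 2.3.3, numpy 2.4.6 and matplotlib 3.10.9.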

Additional observations from a re-analysis of the deposited data

How the results depend on the processing

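In these fits no Hippo pathway gene reached an adjusted p below 0.05 under any of the 16 alternatives, against 41 of all genes without the trend, 574 with sex as a covariate and 603 with the replicate block, and 178 as reported. Stk3 was the 1 Hippo pathway gene past the unadjusted threshold, among the male mice alone and without Cpt1bcKO sample 1. In the male mice the median of the Hippo pathway genes was -0.27. When mitochondrial-encoded and rRNA genes were left out of the scaling, the log2 fold changes became 0.030 for Stk4, 0.052 for Lats2, 0.0011 for Yap1, 0.0020 for Tead1 and 0.098 for Ccn1, which was 0.031 after scaling to the upper quartile. In the male mice Mob1a was -0.084 and Ccn1 0.20. Cpt1b kept -2.27 without the trend, with an adjusted p of 0.0563 (limma).

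Unadjusted, other pathway genes passing numbered 4 as reported, 1 with that scaling, 2 with the upper quartile, 2 without the trend, 8 in the male mice and 9 with the replicate block or sex as a covariate. Over all genes the unadjusted count was 1578 as reported and, in the same order, 1726, 1606, 1474, 2009, 2362 and 2367. After adjustment 1 passed (Strn3) under each of the latter 2. Of the targets, 2 instead of 6 passed unadjusted in the male mice, where calls over all genes were more numerous, and 2 instead of 1 passed after adjustment (Arhgef17 and Ankrd1) in the male mice, with the replicate block and with sex as a covariate. The cause of these differences was not tested.

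Leaving out 1 sample at a time gave 42 to 329 adjusted calls over all genes (42 without Cpt1bcKO sample 2, 329 without Cpt1bcKO sample 1, and 86, 78 and 68 without CtrlCre samples 1, 2 and 3) and 1007 to 2262 unadjusted ones. It gave 0 to 1 Hippo pathway genes, 1 to 5 other pathway genes (1 without CtrlCre sample 3) and 3 to 7 targets (3 without CtrlCre sample 1 or Cpt1bcKO sample 3), all unadjusted. Log2 fold changes then ran from -0.84 to -0.042 for Stk3, -0.11 to 0.30 for Lats1, -0.22 to 0.092 for Lats2, -0.20 to 0.0046 for Yap1, -0.023 to 0.33 for Mob1a, -0.32 to 0.13 for Tead3, -0.59 to -0.12 for Nf2, -1.46 to -0.60 for Ccn2, 0.91 to 1.65 for Myof (0.91 without CtrlCre sample 1), 0.39 to 0.93 for Ccdc80 (0.39 without CtrlCre sample 1, 0.93 without CtrlCre sample 3) and -0.28 to 0.25 for Ccn1. They ran from -0.40 to -0.018 for Sav1, -0.27 to -0.0042 for Tead1, -0.37 to -0.061 for Vgll4 and -0.14 to -0.013 for Stk4. Differences of the paralog ratios ran from -0.065 to 0.25 for Yap1 over Wwtr1, -0.20 to 0.52 for Lats1 over Lats2 and -0.70 to 0.051 for Stk3 over Stk4. Of the alternatives of the named genes, 344 of 367 kept the direction and the side of the adjusted threshold. Only Arhgef17 of these genes passed that threshold as reported, and several alternatives leave the log2 fold change the same or nearly so. This share is therefore a count and not a measure of robustness. At the unadjusted threshold Ccn2 passed in 12 of 16, Axl and Ccdc80 in 10, Strip2 and Slmap in 8, Nf2 in 4 and Stk3 in 2.

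Replicate numbers come from the titles, and the pairing was checked by correlating deviations from the group means across genes. Same-numbered samples gave r of 0.0684 to 0.376 and differently numbered ones -0.329 to 0.147. Because 1 pair was below 0.1, and CtrlCre sample 3 and Cpt1bcKO sample 3 correlated best with another number, the numbers were not taken as pairs. Same-numbered samples were also of the same sex. The paper used littermates as controls, and the titles do not tie the numbers to litters. With the replicate block, Strn3 (adjusted p = 0.0387) and Ankrd1 (adjusted p = 0.00545) passed in limma. The levels per kilobase of unshared bases, which divide all counts of a gene by these bases, were added after seeing the data. Depth is unknown, and values as low as those of Tead2 and Tead4 were tested only in the fit without a filter.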

Other observations

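Beside the STRIPAK genes of the report, 11 further subunits of this complex were looked up. They were chosen after these values were seen, and their values are a description. Of 9 with enough reads to be tested, 8 had a lower and 1 a higher fitted value in Cpt1bcKO, with a median log2 fold change of -0.12 and a range of -0.36 to 0.15, and none reached an unadjusted p below 0.05 in limma, compared with 13.9% of all genes. Fgfr1op2, a STRIPAK subunit that binds SIKE1, had 568, 489 and 492 normalized counts in CtrlCre and 464, 388 and 383 in Cpt1bcKO samples. It was the 1 of the 9 without overlap, against 18.7% of all genes tested. Ppp2cb, a catalytic subunit of protein phosphatase 2A, had 337, 284 and 341 in CtrlCre and 307, 263 and 189 in Cpt1bcKO samples, with overlapping groups. Stk24, a kinase of the complex, had 179, 173 and 180 in CtrlCre and 179, 148 and 128 in Cpt1bcKO samples, where only Cpt1bcKO sample 1 reached the level of the controls. The other tested subunits had log2 fold changes of -0.36 (Ppp2r1b), -0.12 (Mob4), -0.10 (Sike1), -0.10 (Stk25), -0.0070 (Pdcd10) and 0.15 (Cttnbp2nl).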
